A study of Mus musculus with 18 samples.

Results

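Complement components and regulators measured in hearts with and without a tumour necrosis factor transgene are described here. They were taken by symbol from a list of 9: C1qa, C1qb, C1qc, C3, C4b, C3ar1, Cfb, Cfd and Cfp. In the platform annotation 6 of the 9 genes had probe sets of their own, 8 probe sets in all out of 12422 on the array. C4b appears there only on 2 probe sets that are given to C4a and C4b together, so the brighter of them is reported under both names and is not counted as a member. C3 and Cfd were not analysed here. Of the 6 genes, 5 passed the filter on low signal and were tested, while Cfb was too dim.

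Complement is a cascade of plasma and cell-bound proteins that tags targets for removal, recruits leukocytes and can lyse membranes. C1q, built from the products of C1qa, C1qb and C1qc, starts the classical pathway by binding antibody or dying cells, and C4 is the next protein to be cut. Factor B, encoded by Cfb, and properdin, encoded by Cfp, form and stabilise the alternative pathway convertase, and C3ar1 encodes the receptor of the C3a peptide. Much circulating complement is made in the liver, while C1q and properdin are known products of macrophages and other leukocytes.

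The samples were mouse hearts, measured as total RNA on Affymetrix U74Av2 arrays. Controls were FVB mice, an inbred laboratory strain, of 3 weeks (2 distinct female and 3 male arrays). The other mice carried a cardiac-specific transgene for tumour necrosis factor alpha, a major inflammatory cytokine, and were 3 weeks (3 female, 3 male arrays), 13 weeks (3 male arrays) or 40 weeks old (3 female arrays). The labels do not name the promoter that drives the transgene, the strain that carries it or whether each array is a separate animal. The p-values thus reflect only array-to-array spread, part of which may be technical. FVB hearts of 13 or 40 weeks were not analysed here, so in the later groups age and time under the transgene cannot be told apart, and the 2 later ages differ in sex.

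FVB female replicates 1 and 2 hold identical values and were counted as 1 array. That array stood apart: its highest Spearman correlation with any other array was 0.831, against 0.952 to 0.968 for the others, and 7.33% of its probe sets lay at the floor, against 23.69% to 28.31%. Tnf signal was 12.5 to 124.9 on the FVB arrays and 5475.5 to 12082.3 on the 12 transgenic arrays, as labelled. Xist, a transcript of female cells, gave signals of 1380.6 and 2705.7 on the arrays labelled FVB male 1 and 2, which goes against their label of sex. The Y-linked gene Eif2s3y was at 298.7 on male 1, which thus carried both signals, at 67.4 on male 2 and at 544.9 on male 3. Results are therefore also given without these 3 FVB arrays. Heart identity was plain, with all 11 cardiomyocyte markers, such as Myh6 and Tnnt2, above the floor on every array. Signals are on the linear scale as deposited, the floor is a signal of 44.675, and log2 differences, standard errors (SE) and 95% intervals come from limma.

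At 3 weeks, transgenic hearts carried more transcript of all 3 C1q chains and of properdin than FVB hearts, while the C3a receptor gene did not pass the test. C1qa, C1qb and C1qc rose by 1.59, 1.59 and 1.32 on the log2 scale, and Cfp rose by 4.49. The shared C4a and C4b probe set rose by 2.44. In all, 4 of the 5 tested members were called higher at an adjusted p under 0.05 and none lower, where 24.7% of the 7453 probe sets tested were called higher, 21.9% lower and 46.6% in either direction. For the same 4 members no FVB array overlapped any transgenic array of 3 weeks, which held for 23.6% of all probe sets tested. The median log2 difference of the 5 tested members was 1.59, against -0.0065 over all probe sets tested. Cfb is not among the 5, and a gene bright in the 12 transgenic arrays had a better chance of passing the filter. Cfp, dim in FVB hearts, passed in this way.

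**Figure D1:**
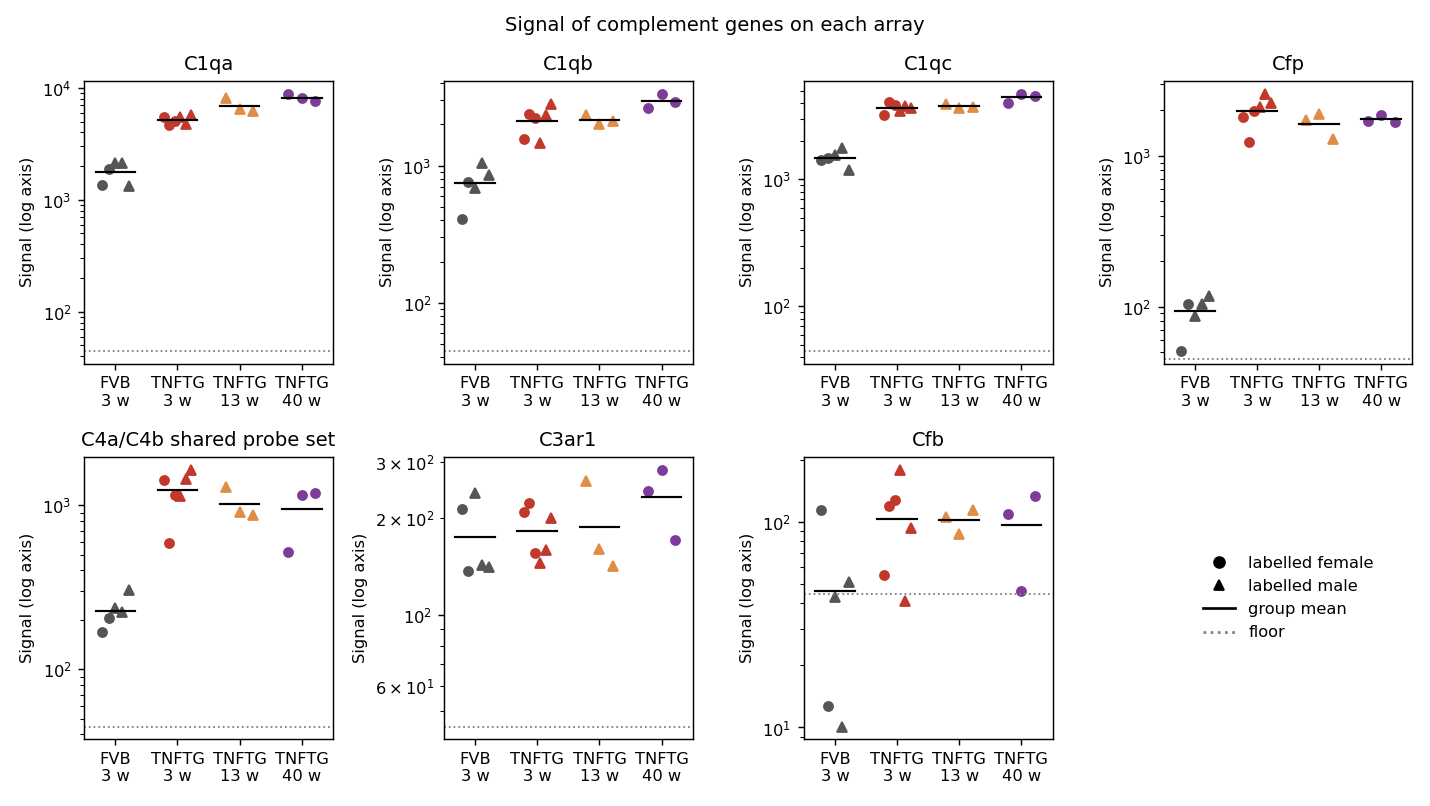
Signal (log axis) of each complement gene on every array, by group (FVB or transgenic) and age in weeks (w). Circles are arrays labelled female, triangles arrays labelled male, the black line is the group mean and the dotted line the floor of 44.675. C1qa, C1qb, C1qc, Cfp and the shared C4a and C4b probe set lie higher on all 6 transgenic arrays of 3 weeks than on any FVB array, while C3ar1 and Cfb overlap.

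C1qa encodes the A chain of C1q. Its signal was 1357.7 and 1900.9 on the FVB female arrays and 2140.3, 2139.7 and 1340.2 on the FVB male arrays. On the 6 transgenic arrays of 3 weeks it ran from 4643.1 to 5709.4, with a median of 5264. Every transgenic array therefore lay above the highest FVB array. The log2 difference was 1.59 (SE 0.15, 95% interval 1.26 to 1.92, limma adjusted p = 6.2e-07), a 3.01-fold change.

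C1qb encodes the B chain. On the brighter of its 2 probe sets, FVB signal was 407.7 and 765.0 in females and 688.6, 1048.3 and 852.6 in males, and transgenic signal at 3 weeks was 1466.3 to 2822.1, with a median of 2275. The lowest value, 407.7, belongs to the FVB array that stands apart, and the groups do not overlap. The log2 difference was 1.59 (SE 0.20, 95% interval 1.15 to 2.02, limma adjusted p = 1.3e-05), or 3.01-fold. Its other probe set was dim, at 68.5 to 367.5 in FVB and 171.9 to 252.9 in transgenic hearts of 3 weeks, and was not called (log2 difference 0.24, SE 0.24, limma adjusted p = 0.433). With the mean of both probe sets C1qb was still called, but at a smaller log2 difference of 0.91 (limma adjusted p = 8.2e-05).

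C1qc encodes the C chain. FVB signal was 1420.1 and 1476.1 in females and 1568.7, 1758.8 and 1189.1 in males, against 3187.7 to 4092.8 (median 3732) on the transgenic arrays of 3 weeks. Here too the groups were wholly apart. The log2 difference was 1.32 (SE 0.13, 95% interval 1.05 to 1.59, limma adjusted p = 6.0e-07), or 2.49-fold.

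The 3 chains are assembled together in a single protein, so it was asked whether their transcripts changed by unequal amounts. For this the log2 difference between 2 chains was taken within each array and compared between the 5 FVB and 6 transgenic arrays of 3 weeks. For C1qa relative to C1qb the FVB mean was 1.27 ± 0.44 (SD, n = 5). The transgenic mean was 1.32 ± 0.43 (SD, n = 6), and the exact two-sided permutation test gave p = 0.859. For C1qa relative to C1qc the means were 0.24 (SD 0.20, FVB) and 0.50 (SD 0.24, transgenic; exact permutation p = 0.0866). For C1qb relative to C1qc they were -1.03 (SD 0.50, FVB) and -0.82 (SD 0.29, transgenic; exact permutation p = 0.42). None of the 3 pairs passed after Benjamini-Hochberg adjustment over the 4 pairs compared, of which the other is Cfb and Cfp (adjusted exact permutation p = 0.859, 0.173 and 0.56). These differences within an array carry the brightness of each probe set, so only their change between groups can be read.

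Properdin, the product of Cfp, stabilises the alternative pathway convertase. Cfp signal was 50.9 and 104.8 on the FVB female arrays and 86.4, 104.6 and 117.7 on the FVB male arrays, all above the floor. The transgenic arrays of 3 weeks had 1225.8 to 2564.8, with a median of 2046. The lowest transgenic array thus lay far above the highest FVB array. The log2 difference of 4.49 (SE 0.19, 95% interval 4.08 to 4.89, limma adjusted p = 4.3e-11) is a 22.4-fold change. FVB signal lies near the floor, and with log2 of signal plus 50 the difference was 3.85, or 14.4-fold. It was the 19th highest log2 difference among the 7453 probe sets tested, where C1qa, C1qb and C1qc held places 400, 401 and 534. Cfp was dim in FVB hearts (mean 6.43 on the log2 scale) and passed the filter through its transgenic arrays. Its place among the tested probe sets is thus a description only.

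C4a and C4b encode near-identical proteins, and these data cannot tell which of them was measured. The brighter of the 2 shared probe sets had signals of 169.2 and 204.3 in FVB females, 235.0, 222.8 and 305.4 in FVB males, and 585.3 to 1647.7 (median 1288) in transgenic hearts of 3 weeks. The groups do not overlap, although transgenic female replicate 2, at 585.3, lay well below the other 5 transgenic arrays. The log2 difference was 2.44 (SE 0.25, 95% interval 1.90 to 2.97, limma adjusted p = 1.4e-06), or 5.41-fold. The other shared probe set lay at the floor on every array of the series.

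C3ar1 encodes the receptor through which C3a acts on macrophages and other leukocytes. Its signal was 214.1, 136.5, 240.0, 143.3 and 140.7 on the 5 FVB arrays and 145.2 to 223.4 (median 179.8) on the 6 transgenic arrays of 3 weeks, so the transgenic range lies inside the FVB range. On the log2 scale the change was 0.08 (SE 0.22), with limma adjusted p = 0.787, and its 95% interval, -0.38 to 0.54, leaves room for a modest change in either direction. Its sign turned without FVB female replicate 3, to -0.08.

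Cfb encodes factor B, the protease of the alternative pathway convertase. Its brighter probe set was at 113.1, 12.7, 43.1, 10.1 and 51.1 on the 5 FVB arrays, 3 of them below the floor, and at 41.0 to 178.7 (median 106.4) on the transgenic arrays of 3 weeks, 1 of them below it. The groups overlap, and the highest FVB value is that of the array that stands apart. Cfb was too dim to be tested with the others. When no filter was applied its log2 difference was 0.68 (limma adjusted p = 0.201). The other Cfb probe set, of lower mean over all arrays, was at 26.0 to 167.9 in FVB and 14.5 to 84.5 in transgenic hearts. Set against Cfp within each array, Cfb had a mean of -0.69 (SD 1.04) over the 5 FVB arrays and -4.39 (SD 0.95) over the 6 transgenic ones. This change of -3.70 had an exact permutation p = 0.0022, the smallest that 462 rearrangements allow, and an adjusted p = 0.0088 in the same exact permutation family. The rise of Cfp, 4.49, is larger in size than this whole change, and Cfb itself was at 0.68. The change is thus no fall of Cfb, and its p-value repeats the Cfp difference and tells nothing about Cfb alone. Cfb was raised to the floor on 3 FVB arrays and 1 transgenic array, so both within-array means are approximate.

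**Figure D2:**
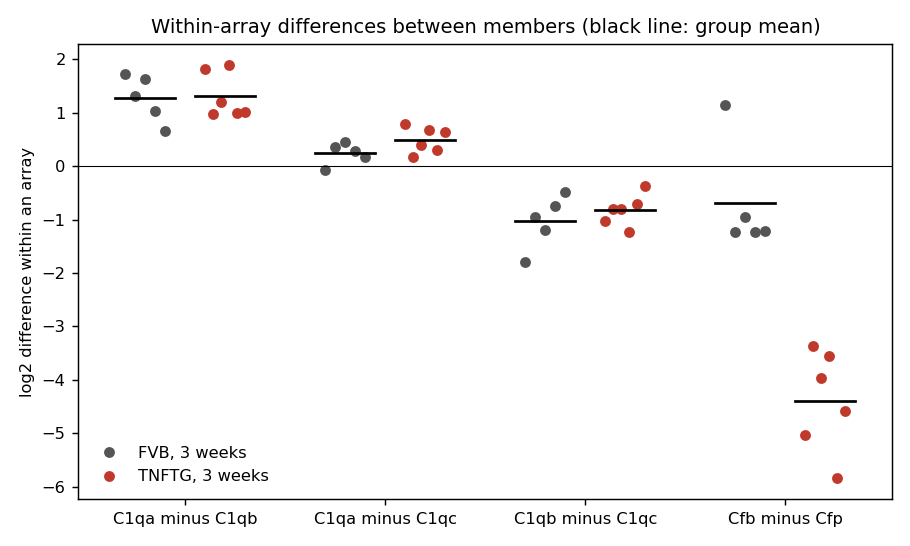
Log2 difference between 2 members within each array of 3 weeks, for 4 pairs; grey points are the 5 FVB arrays, red points the 6 transgenic arrays, and the black line is the group mean. The 3 pairs of C1q chains overlap between FVB and transgenic hearts. Cfb relative to Cfp lies between -5.84 and -3.36 in transgenic hearts and between -1.23 and 1.15 in FVB hearts.

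The same 4 members rose in each sex. In females C1qa, C1qb, C1qc and Cfp rose by 1.66, 1.85, 1.35 and 4.49, and in males by 1.53, 1.33, 1.29 and 4.49, on the log2 scale. Over all probe sets tested, 34.7% were called in females, with 19.4% higher. In males 29.7% were called, with 16.9% higher. The same 4 members had groups apart within each sex, as had 53% of all probe sets in females and 45.9% in males, where the groups are small. With the mean of its probe sets C1qb rose by 0.66 in females and 1.16 in males. C3ar1 was at 0.18 in females and -0.02 in males and was called in neither. The C4a and C4b probe set rose by 2.41 and 2.46. The difference between the sexes was called for 0 of 5 members by limma, with 0 at an unadjusted p under 0.05. Over all probe sets that comparison called 0%, with 1228 at an unadjusted p under 0.05. Male minus female, the change differed by -0.13 for C1qa (95% interval -0.78 to 0.53), -0.52 for C1qb (-1.39 to 0.34), -0.06 for C1qc (-0.60 to 0.48), -0.20 for C3ar1 (-1.12 to 0.72) and 0.0026 for Cfp (-0.81 to 0.81). Several of these near-0 values turned sign with the processing, and the intervals leave room for differences of the size of their bounds. As 2 of the arrays labelled FVB male carry Xist signal, the sex comparison rests on doubtful labels. The dim second probe set of C1qb was at -0.52 in females and rose by 1.003 in males (limma adjusted p = 0.272 and 0.0268).

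When the 3 FVB arrays named above were left out, the 4 members were still higher in transgenic hearts. A single FVB array per sex then remained, whose spread was taken from the other groups. C1qa, C1qb, C1qc and Cfp were then at 1.70, 1.36, 1.46 and 4.12, and the C4a and C4b probe set at 2.23. C3ar1 was at 0.38 and not called (limma adjusted p = 0.283). Without only the array that stands apart, the 4 members were at 1.47, 1.36, 1.30 and 4.23.

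Promoter sequences from RefSeq, covering 250 bases before to 50 bases after the start of a gene, were at hand for 6 members. Those of C1qb, C1qc and Cfp, which rose, and of C3ar1, which did not pass the test, are shown so that they can be set side by side. C3 and Cfd, for which no values are given, had no match to any motif searched. C1qa, C4b and Cfb had no entry. Capitals mark matches, on either strand, to the GAGGAA core bound by the myeloid factor PU.1, or to the NF-kB consensus, the site of a factor activated by tumour necrosis factor. No match overlaps another.
C1qb promoter, chr4:136886151-136886450, minus strand, GRCm38.p6: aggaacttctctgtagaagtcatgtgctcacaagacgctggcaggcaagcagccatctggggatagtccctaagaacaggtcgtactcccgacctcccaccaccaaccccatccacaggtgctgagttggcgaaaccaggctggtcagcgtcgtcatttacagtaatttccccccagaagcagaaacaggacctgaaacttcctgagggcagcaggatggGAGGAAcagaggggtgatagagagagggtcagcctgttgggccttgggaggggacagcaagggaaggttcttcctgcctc
C1qc promoter, chr4:136892865-136893164, minus strand, GRCm38.p6: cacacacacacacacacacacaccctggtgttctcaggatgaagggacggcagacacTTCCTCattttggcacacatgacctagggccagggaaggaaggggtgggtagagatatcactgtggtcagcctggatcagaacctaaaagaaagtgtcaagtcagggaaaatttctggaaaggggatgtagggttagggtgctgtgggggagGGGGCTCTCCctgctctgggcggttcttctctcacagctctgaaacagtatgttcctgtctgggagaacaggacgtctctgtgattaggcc
Cfp promoter, chrX:20931506-20931805, minus strand, GRCm38.p6: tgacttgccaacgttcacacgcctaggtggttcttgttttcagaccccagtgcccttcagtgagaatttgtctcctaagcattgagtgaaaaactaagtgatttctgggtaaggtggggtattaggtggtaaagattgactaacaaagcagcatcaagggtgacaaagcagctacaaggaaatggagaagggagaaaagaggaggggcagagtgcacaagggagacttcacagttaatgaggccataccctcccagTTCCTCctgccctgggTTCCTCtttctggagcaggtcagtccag
C3ar1 promoter, chr6:122856108-122856407, minus strand, GRCm38.p6: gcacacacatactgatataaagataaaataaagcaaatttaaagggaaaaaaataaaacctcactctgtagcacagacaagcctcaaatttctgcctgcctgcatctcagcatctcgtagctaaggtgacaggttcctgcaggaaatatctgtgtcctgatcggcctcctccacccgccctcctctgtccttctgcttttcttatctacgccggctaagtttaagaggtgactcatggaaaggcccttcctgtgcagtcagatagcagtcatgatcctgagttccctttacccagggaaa
The GAGGAA core was found once in C1qb, at -30 to -25 from the start, once in C1qc, on the opposite strand at -193 to -188, and at 2 places in Cfp, on the opposite strand at 7 to 12 and 23 to 28. C3ar1 had no match to it. Of all 32851 promoters in the same table, 28.3% hold this short core, so a match in 3 of the 6 members with a promoter is a description only. The NF-kB consensus was matched in C1qc alone of the 6, at -41 to -32, and in 8.46% of all promoters. TTCNNNGAA, the element of STAT factors, and the core of the interferon response element, GAAA and GAAA parted by any 2 bases, were found in none of the 6 and in 8.3% and 3.44% of all promoters. These letters absent from a short window say nothing about the factors. In GRCm38.p6 C1qb, C1qc and C1qa lie next to each other on chromosome 4, in that order, with no other protein-coding gene between them.

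With age, none of the tested members passed the test. From 3 to 13 weeks in transgenic males, limma called 0 of the 5 tested members (0 at an unadjusted p under 0.05), where 0.523% of all probe sets were called (0.349% higher, 0.174% lower). From 3 to 40 weeks in transgenic females it also called 0 of 5 (1, C1qa, at an unadjusted p under 0.05), where 0.671% of all probe sets were called (0.376% higher, 0.295% lower). The difference between these 2 changes, in which age and sex cannot be told apart, was called for 0 of 5 (0 at an unadjusted p under 0.05) and for 0% of all probe sets (214 at an unadjusted p under 0.05). The change at 40 weeks minus that at 13 weeks was 0.32 for C1qa (95% interval -0.30 to 0.93), 0.54 for C1qb (-0.28 to 1.35), 0.21 for C1qc (-0.30 to 0.72), 0.11 for C3ar1 (-0.76 to 0.98) and 0.60 for Cfp (-0.16 to 1.36).

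C1qa was at 8080.3, 6470.0 and 6181.3 at 13 weeks and at 8831.1, 8168.1 and 7589.0 at 40 weeks, all above the highest transgenic array of 3 weeks, 5709.4. Against the arrays of the same sex, the log2 difference was 0.38 at 13 weeks (SE 0.21, 95% interval -0.06 to 0.81, limma adjusted p = 0.702) and 0.69 at 40 weeks (SE 0.21, 95% interval 0.26 to 1.13, limma adjusted p = 0.204). Groups that do not overlap were found for 15.8% and 17% of all probe sets in these comparisons within a sex. No such share was computed for both later ages against both sexes of 3 weeks. In order of its means, C1qa ran from FVB through transgenic hearts of 3, 13 and 40 weeks, and only the last 2 of these ranges overlap.

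C1qb was at 2354.4, 1998.4 and 2094.3 at 13 weeks and 2614.6, 3327.3 and 2887.3 at 40 weeks, and C1qc at 3935.2, 3656.4 and 3720.5 and at 4013.9, 4706.1 and 4544.0. Their log2 differences were 0.01 and 0.05 at 13 weeks, and 0.54 (SE 0.27) and 0.26 (SE 0.17) at 40 weeks. Both genes had the same order of means as C1qa, with the transgenic groups of 3 and 13 weeks overlapping and the 40-week arrays above those of 13 weeks. The arrays of 13 and 40 weeks also differ in sex, and the share of all probe sets with these groups apart was not computed. None of these differences passed, at limma adjusted p = 0.997 and 0.986 at 13 weeks and 0.603 and 0.752 at 40 weeks.

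Cfp was not called with age. It was at 1722.4, 1889.0 and 1280.6 at 13 weeks and at 1694.6, 1855.1 and 1680.0 at 40 weeks, all within the range of the 6 transgenic arrays of 3 weeks. The log2 difference was -0.51 in males (SE 0.25, 95% interval -1.05 to 0.03, limma adjusted p = 0.631) and 0.09 in females (SE 0.25, 95% interval -0.45 to 0.63, limma adjusted p = 0.971). All 3 male arrays of 13 weeks lay below the 3 male arrays of 3 weeks, and groups were apart for 15.8% of all probe sets in this comparison. All 12 transgenic arrays stayed above every FVB array.

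The C4a and C4b probe set was at 1289.3, 905.2 and 873.2 at 13 weeks and 516.8, 1147.3 and 1193.8 at 40 weeks, with log2 differences of -0.47 (SE 0.34) and -0.15 (SE 0.34) that did not pass (limma adjusted p = 0.827 and 0.961). C3ar1 was at 262.6, 160.8 and 142.2 and at 244.0, 284.3 and 170.7, and all its groups overlap with their neighbours (log2 differences 0.12 and 0.23, SE 0.29 each). Cfb was at 105.5, 86.8 and 113.5 and at 108.5, 45.9 and 132.6, inside the range of the transgenic arrays of 3 weeks.

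**Figure D3:**
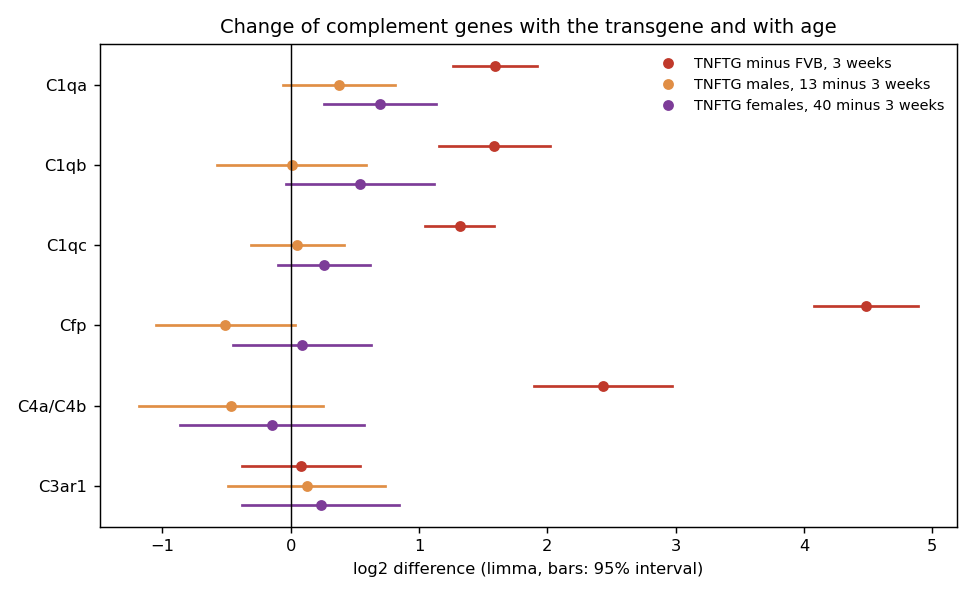
Log2 differences with 95% intervals for the 5 tested members and the shared C4a and C4b probe set, for transgenic minus FVB at 3 weeks (red), 13 minus 3 weeks in transgenic males (orange) and 40 minus 3 weeks in transgenic females (purple). The red intervals of all but C3ar1 lie above 0, while the age intervals include 0, apart from that of C1qa at 40 weeks, 0.26 to 1.13.

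Of 44 other complement genes, 30 had a probe set of their own and 14 passed the filter. At 3 weeks 9 of the 14 rose and 2 fell, with a median log2 difference of 0.93, against -0.0065 over all probe sets, of which 24.7% were called higher and 21.9% lower. Those 14, like the members, favour genes bright in transgenic hearts. With no filter, 9 of the 30 genes rose and 5 fell. The shares of 24.7% and 21.9% belong to the filtered probe sets, and the shares without the filter are not given here. These counts therefore cannot be set against the whole array. The median log2 difference of the 30 genes with no filter was -0.1233, against -0.1252 over all probe sets, so the higher median holds only for the filtered genes. Of the C1 proteases that C1q carries, C1ra rose by 1.47 (SE 0.16, limma adjusted p = 2.3e-06), from 218.2 to 539.1 in FVB to 878.5 to 1213.9 in transgenic hearts of 3 weeks, and its probe sets may also see its near-identical copy C1rb. C2, which joins C4b in the classical convertase, rose by 0.59 with overlapping groups (limma adjusted p = 0.0496). The C2 call was lost with quantile normalisation, without the filter, with a variance trend, with both identical columns and without the 3 FVB arrays.

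Among complement receptors the integrin genes rose most. Itgb2, the beta chain shared by complement receptors 3 and 4, rose by 4.17 (SE 0.20), from at most 97.5 in FVB to at least 1023.9, with 1 FVB array at the floor. Itgax, the alpha chain of complement receptor 4, rose by 3.63 (SE 0.15), from at most 179.5 to at least 1552.7. Cd93, once described as a C1q receptor and abundant on endothelium, rose by 0.97. The C5a receptor gene C5ar1 was at -0.09 (SE 0.21, limma adjusted p = 0.745).

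Regulators moved in both directions. Cd55, which dissociates convertases, rose by 1.91 (SE 0.23), with 2 FVB arrays at the floor. Serping1, the C1 inhibitor, rose by 0.88 (SE 0.16), and the fluid-phase inhibitors clusterin and vitronectin, Clu and Vtn, rose by 1.10 and 1.37. Cd59a, which blocks the membrane attack complex, fell by 0.99 (SE 0.17, limma adjusted p = 0.00017), from 3312.7 to 4794.8 in FVB to 1013.5 to 3346.9, and its relative Cd59b fell by 0.56 (SE 0.14), a call lost without the 3 FVB arrays. The groups of both overlap, and Cd59a and Cd59b are named after their values were seen. Cr1l, which encodes the regulator Crry, and Cfhr2 did not pass, at 0.04 and -0.34. The 16 genes that failed the filter, among them the lectin pathway genes Masp1, Masp2, Mbl1 and Mbl2 and the terminal components Hc, C8g and C9, had mean signals of 10.4 to 115.1. No terminal component was tested. With age, limma called 0 of these 14 genes in either comparison, with 3 at an unadjusted p under 0.05 in each. Over all 7453 probe sets 0.523% and 0.671% were called, and 642 and 678 were at an unadjusted p under 0.05. By sex, 5 of the genes called at 3 weeks passed in a single sex. The share of all called probe sets that did so was not computed. Over all probe sets, 34.7% were called in females and 29.7% in males, which is a different measure. These values by sex rest on doubtful labels, as 2 arrays labelled FVB male carry Xist signal, and on an FVB female array that stands apart. Cd59a was at -0.29 in females (limma adjusted p = 0.385) and fell by 1.70 in males, C2 was at -0.14 in females and rose by 1.31 in males, and Clu was at 0.50 in females and rose by 1.70 in males. Cd93 rose by 1.40 in females and was at 0.54 in males, and Cd59b fell by 0.67 in females and was at -0.44 in males. The difference between the sexes was called for 0 of the 14 by limma, with 7 at an unadjusted p under 0.05. Over all 7453 probe sets it was called for 0%, with 1228 at an unadjusted p under 0.05.

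**Figure D4:**
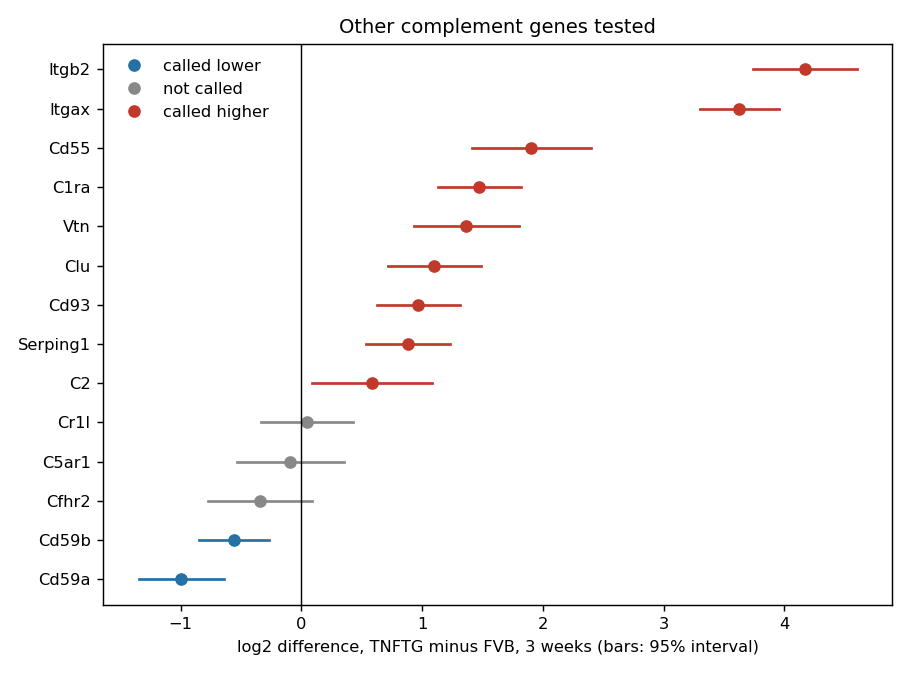
Log2 differences (transgenic minus FVB, 3 weeks) with 95% intervals of the 14 other complement genes tested; red marks genes called higher, blue genes called lower and grey genes not called. Itgb2 and Itgax stand at 4.17 and 3.63, and Cd59a and Cd59b at -0.99 and -0.56.

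Most macrophage markers tested rose at 3 weeks, as did 4 of the 5 tested members. Of 16 listed, 15 had a probe set and 14 were tested. Of these 11 rose, 1 (Fcgr1) fell and 2 (Mrc1 and Cx3cr1) did not pass, with a median of 2.47. With age limma called 0 of the 14, where 0.523% and 0.671% of all probe sets were called. The medians were -0.198 from 3 to 13 weeks in males and -0.0164 from 3 to 40 weeks in females. The summed signal of the 15 markers was 5203 to 6427 in FVB and 31452 to 39561 in transgenic hearts of 3 weeks. Lyz2 alone gave 10601.7 to 15043.9 of it in those transgenic hearts. The sum was 29368 to 41238 at 13 weeks and 29456 to 35023 at 40 weeks. No marker was at 0 on any array. Of the 14, 10 had a larger log2 difference than C1qa, C1qb or C1qc, and none a larger one than Cfp. In a whole heart, more cells of a type and more RNA per cell cannot be told apart, and the part of macrophage number in these results was not tested. T cell markers also rose, 5 of 5 tested, with summed signals of 562.6 to 1149 in FVB and 1743 to 3657 in transgenic hearts of 3 weeks. Of 6 neutrophil markers tested 3 rose and 2 fell, and of 6 B cell markers 2 rose, beside 24.7% higher and 21.9% lower over all probe sets. Neutrophil sums were 791.4 to 1121 on 4 FVB arrays, 3651 on the FVB array that stands apart and 1483 to 2220 in transgenic hearts of 3 weeks. B cell sums were 643.5 to 861.0 on those 4 FVB arrays, 2246 on the array that stands apart and 1239 to 1880 in transgenic hearts. Only that array made the FVB and transgenic sums overlap. Hepatocyte markers, of which 1 of 8 was tested and fell, had sums of 726.1 to 941.6 on the same 4 FVB arrays, 2400 on the array that stands apart and 430.7 to 630.5 in transgenic hearts of 3 weeks. Of 11 cardiomyocyte markers, 10 fell and 1, Nppa, rose; after quantile normalisation 6 fell. Of 10 fibroblast markers tested 3 rose and 3 fell. Of 9 endothelial markers 0 rose and 3 fell, and of 6 adipocyte markers 0 rose and 3 fell. The same 24.7% and 21.9% over all probe sets stand beside these counts. The part of these other cell types in the members' results was not tested either.

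The genes whose 6 group means were most like those of a member, each gene centred on its own mean, were found among 5699 others by the smallest root mean square distance on the log2 scale. For C1qa they were Meox1 (0.15), Rps19 (0.18) and Cd37 (0.18), for C1qb Rcc2 (0.14), Prdm1 (0.17) and Cd82 (0.18), and for C1qc Nfkbiz (0.086), Lbp (0.094) and Gimap4 (0.12). For Cfp they were the chemokine gene Ccl9 (0.19), the leukocyte phosphatase gene Ptprc (0.24) and the phagocyte oxidase gene Ncf4 (0.27). C3ar1 lay nearest to Slc35b2 (0.034), Mien1 (0.054) and Hsd3b7 (0.058), which like it were nearly level over the groups.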

How the data were processed

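Total RNA of mouse hearts was hybridised to Affymetrix U74Av2 arrays, per the labels. The authors deposited one intensity per probe set on a linear scale, and the software behind it is not given in the sources used here. Its trimmed mean (percentiles 2 to 98) lay at 499.2 to 499.9 on all 17 distinct arrays, so nothing was rescaled. The number of arrays limits the precision. Values under the pooled 25th percentile, 44.675, were raised to it before log2. The brightest 60% of 12422 probe sets (7453, with 66 controls left out beforehand) went into limma 3.58.1 under R 4.3.3, with a mean for each of 6 groups (lmFit, eBayes, 11 residual degrees of freedom). Two-sided p-values were adjusted by Benjamini-Hochberg over the 7453, with calls at 0.05. The overall 3-week change averages both sexes. Both the fit and the exact permutation test (Python 3.11.15) were tested on simulated data.

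A gene is its probe set of highest mean, with symbols from the platform annotation, which can be old. The members, the lists of other complement genes and of macrophage, T cell, neutrophil, B cell, hepatocyte, fibroblast, endothelial, adipocyte and cardiomyocyte markers, and the naming rule (members, other complement genes called with groups apart, the 3 nearest patterns) were chosen with earlier results of these data known. Planned within-array pairs with C3, C4b or Cfd were not analysed here. Same-numbered arrays deviated together little on average (mean correlation 0.032 over 40 pairs, against -0.016 over 80 others), so replicate numbers were not taken as pairs. Single correlations ran from -0.336 to 0.466 for same-numbered pairs and from -0.381 to 0.333 for the others. Also tried were quantile normalisation, a higher floor, log2 of signal plus 50, no filter, a variance trend, fewer groups, a replicate block, averaged probe sets and omission of single arrays. After seeing the data, 2 more were tried: both identical columns, and omission of 3 FVB arrays.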

Additional observations from a re-analysis of the deposited data

Results flagged for a closer look

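Arrays were examined for each probe set of the members and of C4a and C4b, within FVB and within transgenic hearts of 3 weeks. On 3 of the 20 sets so formed, a single array lay far from the rest. Chance alone gives about 1 in 20 for independent sets, which these are not. Both Cfb flags fall on the same array, and the dimmer C4a and C4b probe set, at the floor throughout, could not be flagged. The count therefore cannot be set against chance. Both Cfb probe sets were highest on the FVB female array that stands apart, at signals of 113.1 and 167.9, with a gap to the next array of 0.855 and 0.716 of the range of the 5 FVB arrays. These gaps are on the log2 values used in the fit, where 3 FVB arrays of the brighter Cfb probe set were raised to the floor. On linear signals the gaps are 0.602 and 0.724, of which only the second is above 0.71. The C4a and C4b probe set was lowest on transgenic female replicate 2, at 585.3, with a gap of 0.638 of the range of the 6 transgenic arrays on the log2 scale and 0.516 on linear signals. No difference between the sexes or between the age changes was called for a member.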

How the results depend on the processing

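The number of members called, 4 of 5 at 3 weeks and in each sex and 0 in the sex difference and with age, was the same under every alternative run. With the replicate block it was also 4 at 3 weeks, and C1qb was at 1.55. Of 1134 recomputed log2 differences of tested members and the C4a and C4b probe set, 1092 kept sign and side of the threshold, and 42 turned sign; none of the 42 was called. With quantile normalisation the sex difference was 0.053 for C1qa, 0.16 for C1qc, -0.20 for Cfp and -0.28 for C4a and C4b, and C1qc at 13 weeks was -0.019. The sex difference of C4a and C4b was -0.01 with the replicate block. Averaging probe sets put C1qb at 0.50 in the sex difference and -0.034 at 13 weeks. Keeping both identical columns put Cfp at -0.17 in the sex difference. Without the 3 FVB arrays C3ar1 was at 0.24 in males, and the sex difference was 0.57 for C1qa, 0.29 for C1qc and -0.085 for C4a and C4b.

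Leaving out single arrays gave C3ar1 values of -0.082 to 0.24 at 3 weeks, -0.14 to 0.51 in females, -0.15 to 0.23 in males and -0.14 to 0.30 at 13 weeks. In the sex difference it gave -0.37 to 0.12 for C1qa, -0.22 to 0.065 for C1qc, -0.53 to 0.12 for C3ar1, -0.52 to 0.52 for Cfp and -0.32 to 0.32 for C4a and C4b. It gave -0.26 to 0.21 for C1qb at 13 weeks, -0.12 to 0.23 for Cfp and -0.52 to 0.25 for C4a and C4b at 40 weeks. In the difference of the age changes it gave -0.067 to 0.38 for C3ar1 and -0.057 to 0.71 for C4a and C4b. The within-array change of C1qa against C1qb ran from -0.11 to 0.16.

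Counts over all probe sets moved by over 1.5 times in places. The female effect went from 2587 to 1013 with only the groups compared, 1404 without the 3 FVB arrays and 1462 without the array that stands apart. The sex difference went from 0 to 5 (quantile), 3 (higher floor), 91 (no filter), 171 (both columns) and 1492 (without FVB female replicate 3). The 13-week change went from 39 to 61 (higher floor), 64 (3 FVB arrays out) and 14 to 74 (single arrays out), and the 40-week change from 50 to 78 (higher floor), 77 (no filter) and 25 to 74 (single arrays out). The cause was not tested. Signals near the floor, as for Cfb, limit what can be measured.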
